A study of Ipomoea batatas with 12 samples.

Results

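CYP86A22 is the fatty acid hydroxylase gene with the identifier G29886, 1 of 50592 genes in the expression tables, and its level was followed over 12 RNA-seq libraries of the sweetpotato (Ipomoea batatas) cultivar Xuzishu 8. It was selected because it stood low under heat and under drought with heat when the libraries were first analysed, so its differences between those groups and the control are given as descriptions and carry no test. Field-grown plants were moved to hydroponic culture and divided into 4 groups of 3 libraries: DH, heat together with drought imposed by polyethylene glycol (PEG) in the nutrient solution; HT, heat alone; DR, PEG alone; and CK, plants in nutrient solution without stress. Each library was made from an equal mixture of leaf and storage root RNA collected over a series of time points, so neither organ nor time can be separated, and a smaller share of 1 organ cannot be told apart from less RNA of the gene per cell. CK plants stood in a growth chamber of their own, and the chamber and the stress cannot be told apart. The separate plants behind each replicate pool are not described further, so p-values measure the spread between pools.

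Cytochrome P450 enzymes of the CYP86A family are fatty acid omega-hydroxylases: they add a hydroxyl group to the terminal carbon of a fatty acid. In Arabidopsis such omega-hydroxy acids are building blocks of cutin, the polyester of the leaf and stem cuticle that limits water loss, and of suberin, the barrier polyester of roots and tuber skins. CYP86A22 itself was characterised in petunia, where it acts in the stigma; its role in sweetpotato is taken here only from the name given to G29886 in the study's annotation.

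The unit of all levels is FPKM, fragments per kilobase of transcript, scaled to the number of aligned fragments. The sums of FPKM ran between 1088868 and 1472561 per library, and the 10 most abundant genes held 34.7% to 89.7% of them. The table of DR replicate 2 lists 49073 genes and lacks 1519 loci, all with identifiers that begin with MSTRG; G29886 is listed in every library. Reads shared between near-identical gene copies could not be followed in the tables, so the level of G29886 may hold reads of close relatives or lack some of its own. Libraries are named below by group and replicate, for example CK3.

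CYP86A22 was highest without stress and lowest under the combined stress. Its level was 6.82, 0.23 and 0.84 FPKM in DH1, DH2 and DH3, and 3.35, 0.91 and 16.3 FPKM in HT1, HT2 and HT3. It was 34.33, 16.8 and 16.66 FPKM in DR1, DR2 and DR3, against 427.33, 147.59 and 22.74 FPKM in CK1, CK2 and CK3. Every DH library and every HT library lay below every CK library, whereas DR1 stood above CK3. Every DH library also lay below every DR library, and every HT library did so by a narrow margin, with 16.3 FPKM in HT3 against 16.66 FPKM in DR3. DH and HT overlapped. Such a lack of overlap was not rare: among the genes tested (those that reached 1 FPKM in at least 3 libraries and had a value in every library compared), all DH libraries lay below all CK libraries in 11.8%, all HT below all CK in 4.84%, all DR below all CK in 4.19%, all DH below all HT in 10.4%, all DH below all DR in 15.9% and all HT below all DR in 6.34%.

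**Figure D1:**
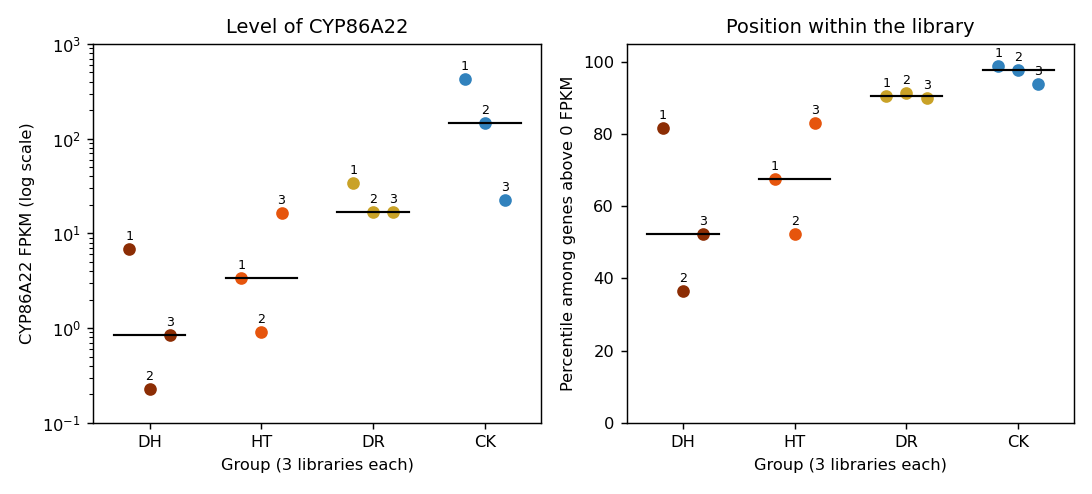
Level of CYP86A22 in each of the 12 libraries (left, FPKM on a log scale) and the percentile of that level among the genes above 0 FPKM in the same library (right), by group; points are libraries with their replicate number and black lines are group medians. The 3 CK libraries run between 22.74 and 427.33 FPKM, and the 3 DH libraries between 0.23 and 6.82 FPKM.

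The spread within groups was wide. Group levels averaged 2.63 ± 3.64 FPKM in DH, 6.85 ± 8.27 FPKM in HT, 22.6 ± 10.2 FPKM in DR and 199 ± 207 FPKM in CK (SD, n = 3 each). In DH, HT and CK the SD was larger than the mean, and in CK most of it came from CK1. Group medians were 0.84, 3.35, 16.8 and 147.59 FPKM in DH, HT, DR and CK, each the value of 1 library (DH3, HT1, DR2 and CK2), so folds of medians rest on single libraries. By medians the gene was 176-fold lower in DH than in CK, 44.1-fold lower in HT than in CK and 8.79-fold lower in DR than in CK. By means the folds were 75.7 for DH, 29.1 for HT and 8.82 for DR.

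The position of the gene within its own library does not depend on the scaling between libraries. Among genes above 0 FPKM, CYP86A22 stood at percentile 81.7, 36.6 and 52.3 in DH1, DH2 and DH3 and at percentile 67.6, 52.2 and 83.2 in HT1, HT2 and HT3. In DR1, DR2 and DR3 it stood at percentile 90.7, 91.3 and 90.0, against 99.0, 97.9 and 94.0 in CK1, CK2 and CK3. The percentile also depends on how many genes a library detects, 33410 in CK3 against 18438 in DR1 and 16553 in DR2. By plain rank, counted from the most abundant gene, DR1 (1712) and DR2 (1441) stood ahead of CK3 (1995). The gene was thus near the top of the detected genes in unstressed plants and near their middle in DH3 and HT2.

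Differences between groups were estimated on log2(FPKM + 1), a scale that understates the change of low genes, with limma over 12295 genes that reached 1 FPKM in at least 3 libraries. CYP86A22 averaged 1.38 ± 1.40 in DH, 2.39 ± 1.61 in HT, 4.48 ± 0.57 in DR and 6.84 ± 2.11 in CK (log2 scale, SD, n = 3 each). The difference from CK was -5.46 (SE 1.09) for DH and -4.45 (SE 1.09) for HT. These 2 differences are the ones by which the gene was selected. A gene counted as lowered when its log2 change was below -1 with an adjusted p under 0.05, which took in 0.968% of all genes tested under DH and 0.472% under HT; nothing is read from these shares for CYP86A22.

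Under drought alone the lower level of CYP86A22 did not pass the test. The difference between DR and CK was -2.36 (SE 1.09, 95% interval -4.62 to -0.11), with an unadjusted p of 0.0408 and an adjusted p of 0.63 (limma, two-sided, Benjamini-Hochberg over all genes tested). The share of genes lowered under DR was 0.195%. Deviations of CK and DR libraries with the same replicate number correlated in all 3 pairs (r from 0.19 to 0.60 across genes), and each DR library lay below the CK library of its number, as in 12.4% of the genes tested that have a value in every library. With the replicate number as a block the difference still did not pass (limma adjusted p = 0.40 over 12 libraries and 0.13 in a fit of DR and CK alone, the second chosen after the data were seen), while the number of genes lowered among all tested was 43 in place of 24. By its size the difference ranked 187 among the 12295 genes, counted from the most negative, and the CK libraries of this test also entered the comparisons that selected the gene. The value was sensitive to single CK libraries: it was -3.50 without CK3 and -1.41 without CK1. With limma array weights, which give libraries that deviate less more weight, it was -2.92 and passed the test (adjusted p = 0.0136), with a weight of 0.24 for CK3 and 4.63 for CK2. Under these weights 2.03% of all genes tested were lowered in this comparison, against 0.195% without them.

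The stresses were also set against each other, with libraries that had served in the selection. DH differed from DR by -3.10 on the log2 scale (SE 1.09, 95% interval -5.35 to -0.84), with an unadjusted p of 0.0091 and a limma adjusted p of 0.91. By medians the level was 20.0-fold lower in DH than in DR. Of the genes tested, 0.0407% passed as lowered in this comparison. The array weights again altered the call, to -3.36 with a limma adjusted p of 0.0047. DH1, DH2 and DH3 had weights of 0.703, 1.26 and 8.21, so the weighted DH level rested mainly on DH3. The share of all genes lowered under these weights was not computed for DH against DR.

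Neither of the remaining contrasts passed. HT differed from DR by -2.09 (SE 1.09, 95% interval -4.35 to 0.16, limma adjusted p = 0.68), where 0.0488% of the genes tested were lowered and 0.0163% raised. DH differed from HT by -1.01 (SE 1.09, 95% interval -3.26 to 1.25, limma adjusted p = 0.79). Both intervals include 0, and neither shows that the levels were alike. No gene passed in DH against HT by limma, where 597 genes (4.86% of those tested) had an unadjusted p under 0.05. The test of whether heat acted differently with and without drought (DH less HT less DR plus CK) gave 1.36 (SE 1.55, 95% interval -1.83 to 4.54, limma adjusted p = 0.90). Of the genes tested 0 passed it, and 647 (5.26%) had an unadjusted p under 0.05. It holds the DH, HT and CK values that selected the gene, and DH2 and DH3 lay below the pseudocount of 1 FPKM. With pseudocounts of 0.1 and 0.01 the estimate was 0.82 and 0.68, and that of DH against HT was -1.58 and -1.73.

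**Figure D2:**
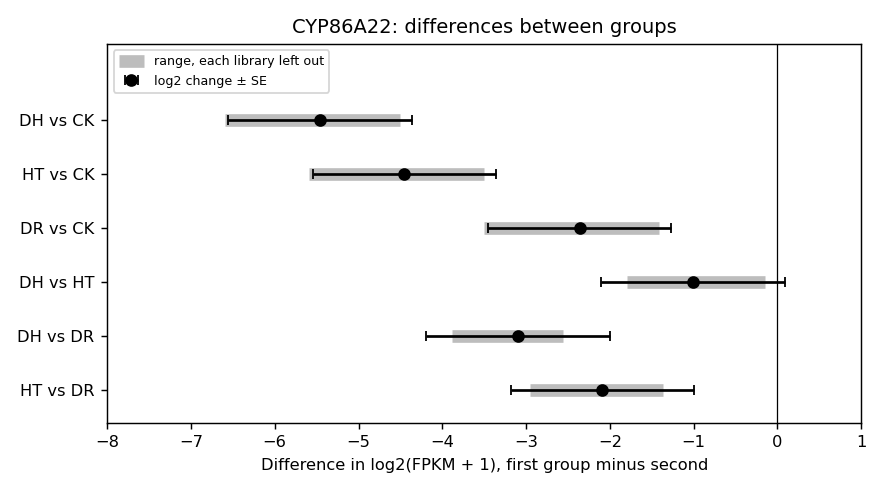
Differences in log2(FPKM + 1) of CYP86A22 between groups, the first-named group minus the second; black points are estimates with their SE, and grey bars give the range of the estimate when each library was left out in turn. DH against CK (-5.46) and HT against CK (-4.45) selected the gene; that of DH against HT (-1.01) lies nearest to 0.

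The order of the levels was thus DH, HT, DR and CK, low to high. Of the neighbours in this order, DH and HT did not differ beyond their spread, HT and DR touched at 16.3 and 16.66 FPKM without passing the test, and DR and CK overlapped. The median log2 change over all genes tested was -0.37 for DH, 0.30 for HT and 0.07 for DR against CK. Rises and falls cancel in such medians, so they give the common shift and not how far single genes moved. With upper-quartile scaling these medians were -0.19, -0.09 and 0.03, and the direction of every CYP86A22 difference was the same under each scaling tried.

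Other genes of the cuticle and suberin route were read beside CYP86A22. The list holds 11 genes named in the study's annotation, which were picked by the study from these same libraries, so their common direction is not independent evidence. Of 10 that were tested, CYP86A22 is set aside because it was selected on these values. Of the other 9, 0 were lowered under DH, HT or DR by limma, where the shares over all genes were 0.968%, 0.472% and 0.195%. At an unadjusted p under 0.05, in either direction, there were 7 of the 9 under DH, 5 under HT and 3 under DR, against 11.6%, 15.1% and 7.22% of all genes tested. With limma array weights 7 of the 9 were lowered under DH, 4 under HT and 1 under DR, where 10.3%, 1.89% and 2.03% of all genes were. Those weights were largest for DH3 (8.21) and CK2 (4.63), so the weighted DH and CK levels rested mainly on these libraries. With the replicate block 2 were lowered under DH. The median log2 change of all 10 was -3.01 under DH, -2.39 under HT and -1.14 under DR. These medians hold the selected gene, and nothing is read from them. Of the other 9, LTP1 and At1g31550 had a log2 change above 0 in each of the 3 comparisons, and the rest had one below 0. Over all genes tested 64.9%, 40.1% and 45.8% lay below 0 under DH, HT and DR. Without CK3, 5 of the 9 were lowered under DH and 2 under HT, and without CK1 or HT2, 1 was lowered under DH. The share of all genes lowered was not computed for libraries left out, nor under DH for the replicate block. Nothing is read from those counts.

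The enzyme nearest in role is G43687, annotated as omega-hydroxypalmitate O-feruloyl transferase, which joins ferulic acid to omega-hydroxy acids of the kind that CYP86A enzymes make. It had 29.38, 15.68 and 19.03 FPKM in DH1, DH2 and DH3, and 27.35, 50.79 and 19.02 FPKM in HT1, HT2 and HT3. DR1, DR2 and DR3 had 137.46, 23.58 and 25.57 FPKM, against 663.52, 257.14 and 78.61 FPKM in CK1, CK2 and CK3. All DH and HT libraries were below all CK libraries, and CK3 was the lowest of the CK libraries, as it was for CYP86A22. The log2 changes of -3.46 under DH, -2.95 under HT and -2.41 under DR (SE 0.999 each) had limma adjusted p of 0.082, 0.17 and 0.50.

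FDH (FIDDLEHEAD), in Arabidopsis a ketoacyl-CoA synthase of the epidermis needed to keep organs from fusing, is represented by 2 loci without a value in DR2. MSTRG.43791 had 0.2, 0.41 and 0.0 FPKM in DH1, DH2 and DH3 and 0.65, 0.65 and 2.52 FPKM in HT1, HT2 and HT3. It had 5.73 and 14.18 FPKM in DR1 and DR3, against 111.64, 51.46 and 0.96 FPKM in CK1, CK2 and CK3. CK3 lay among the stressed libraries, and HT3, DR1 and DR3 exceeded it. Its log2 change was -4.25 under DH (limma adjusted p = 0.059), -3.41 under HT (0.16) and -1.16 under DR (1.0, fitted without DR2), and that of MSTRG.45382 was -2.65, -2.46 and -1.12, none of which passed.

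MYB106, in Arabidopsis a transcription factor of epidermal cell shape and cuticle formation, had 1.02, 0.0 and 1.9 FPKM in DH1, DH2 and DH3 and 0.86, 1.14 and 5.66 FPKM in HT1, HT2 and HT3. The 2 DR libraries that list it, DR1 and DR3, had 7.84 and 8.75 FPKM, against 54.06, 15.35 and 1.69 FPKM in CK1, CK2 and CK3. Only CK1 and CK2 stood above every stressed library. DCR, an acyltransferase of cutin assembly in Arabidopsis, reached 17.45 FPKM in CK1 and lay at 8.26 FPKM or below elsewhere. APG, annotated as a GDSL esterase/lipase, reached 213.65 FPKM in CK1 and 14.04 FPKM or less in all other libraries. The log2 changes of these 3 genes were -2.90, -2.06 and -3.44 under DH, with limma adjusted p of 0.19, 0.37 and 0.19.

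A pair of list members ran the other way. LTP1, a lipid transfer protein of the kind that carries lipids toward the cell surface, had 759.36, 589.38 and 1424.16 FPKM in DH1, DH2 and DH3 and 404.17, 797.91 and 2821.13 FPKM in HT1, HT2 and HT3. It had 2479.67, 4470.02 and 8922.99 FPKM in DR1, DR2 and DR3, against 442.61, 219.57 and 234.93 FPKM in CK1, CK2 and CK3. Every DR library was above every CK library, as in 7.08% of the genes tested that have a value in every library, and the log2 change of 4.02 (SE 0.99) under DR did not pass (limma adjusted p = 0.053). At1g31550 (G25529), a GDSL esterase/lipase, lay between 0.0 and 5.82 FPKM in all libraries. Among the other GDSL esterases, G14287 (At1g28590) was at 0.42 to 2.16 FPKM in DH and 0.59 to 2.72 FPKM in HT, against 5.56 to 86.73 FPKM in CK, with its highest value in CK3. G3675, which has the same name, was above 1 FPKM only in CK2 and CK3 and was not tested.

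**Figure D3:**
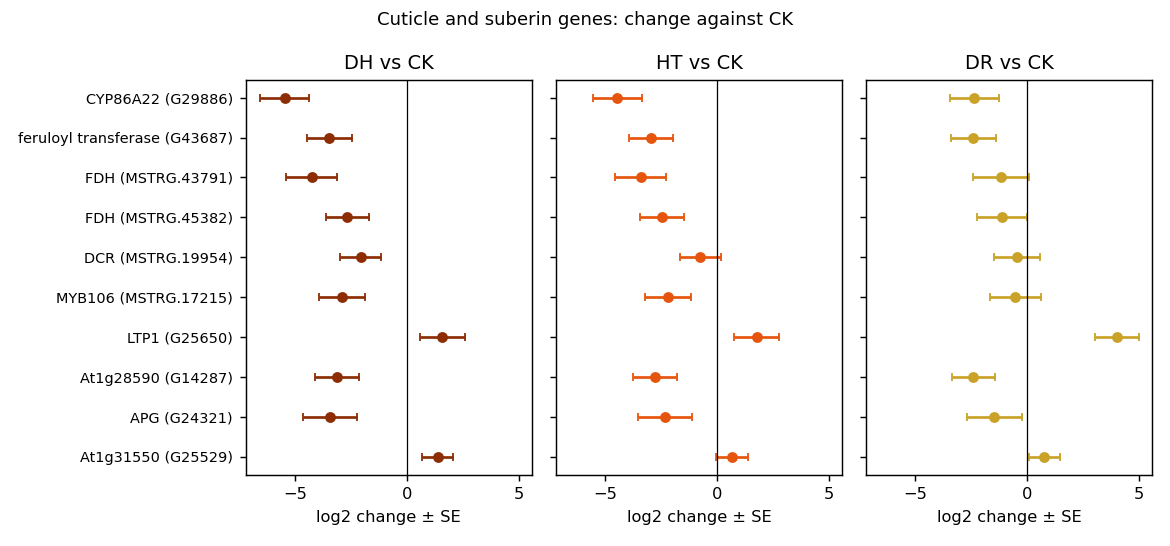
Log2 change of FPKM + 1 against CK for the 10 tested genes of the cuticle and suberin list under DH, HT and DR; points are limma estimates and bars their SE, and loci that begin with MSTRG were fitted without DR2. In each panel 8 of the 10 points lie below 0, and LTP1 and At1g31550 lie above it. CYP86A22 is the lowest point under DH and HT, the comparisons that selected it. Under DR, G43687 (-2.41) and G14287 (-2.40) lie below CYP86A22 (-2.36).

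Fatty acid genes outside the cuticle route were mixed. Of 6 on that list, 1 was raised and 1 lowered under DH (0.577% and 0.968% of all genes tested) and 0 passed under HT or DR by limma, where 4 had an unadjusted p under 0.05 in each, as 15.1% and 7.22% of all genes had. ACX2, an acyl-CoA oxidase that starts the breakdown of long-chain fatty acids in peroxisomes, had 450.35, 24.35 and 148.67 FPKM in DH1, DH2 and DH3, against 2.92, 4.96 and 0.88 FPKM in CK1, CK2 and CK3. It rose under DH by 5.08 on the log2 scale (SE 1.08, limma adjusted p = 0.0147). Without CK3, DH1 or DH3 the limma adjusted p was 0.062, 0.13 or 0.071. Under HT and DR its log2 changes were 3.51 and 3.53, which did not pass (limma adjusted p = 0.12 and 0.18). OPR3 (G20440), a reductase of jasmonate synthesis from fatty acids, fell by 4.31 under DH (limma adjusted p = 0.044), a call that was lost on leaving out any 1 of 7 of the 12 libraries (adjusted p up to 0.23). Its levels were 56.3, 1.61 and 6.17 FPKM in DH1, DH2 and DH3, against 70.22, 358.52 and 327.3 FPKM in CK1, CK2 and CK3, so that CK1 was the lowest CK library here and not the highest. The other OPR3 locus, G11747, had a log2 change of -3.77 under DH that did not pass (limma adjusted p = 0.082). The lipoxygenases LOX1.5 and LOX2.1 went the other way under DH, by 4.07 and 2.51, and did not pass (limma adjusted p = 0.066 and 0.32). FAD6, a desaturase of chloroplast lipids, had a log2 change of -2.48 under DH (limma adjusted p = 0.062).

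Of 4 other cytochrome P450 genes, 1 was lowered under DH (0.968% of all genes tested) and 0 under HT or DR by limma, where 2 and 4 had an unadjusted p under 0.05 (15.1% and 7.22% of all genes). CYP75B2, a flavonoid 3'-hydroxylase, had 0.23, 0.94 and 0.21 FPKM in DH1, DH2 and DH3, against 70.0, 15.19 and 38.45 FPKM in CK1, CK2 and CK3. It fell by 4.65 under DH (SE 0.92, limma adjusted p = 0.0084, and 0.055 without DH3). Under HT and DR its log2 changes were -3.50 and -3.59, which did not pass (limma adjusted p = 0.064 and 0.067). The 2 loci named CYP98A3, a hydroxylase of the lignin route, had log2 changes of -3.88 (G25739) and -3.0 (G26105) under DH that did not pass, and CYP707A2, an abscisic acid hydroxylase, had one of 2.91 (limma adjusted p = 0.15).

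Likeness to CYP86A22 was measured as Pearson r of log2(FPKM + 1) over the 12 libraries, for 11207 tested genes with a value in every library. These correlations describe libraries that share groups, organ mixture and scaling, and they carry no test. The median r was 0.086 over all genes and 0.469 over the 163 genes with a symbol in the study's tables, which were themselves chosen for differing between these groups. Of these 163 genes PALA was the nearest, with r = 0.882 (0.819 without CK1 and DH2, the libraries with the most extreme CYP86A22 levels). PALA is a phenylalanine ammonia-lyase, the enzyme that opens the phenylpropanoid route. It was at 0.31, 0.5 and 0.09 FPKM in DH1, DH2 and DH3, 0.72, 0.14 and 5.23 FPKM in HT1, HT2 and HT3, 2.78, 0.41 and 5.15 FPKM in DR1, DR2 and DR3, and 390.78, 127.17 and 35.57 FPKM in CK1, CK2 and CK3. PALA shared with CYP86A22 the order of the CK libraries and differed in DR, where it was close to its level under heat.

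The next genes with a symbol were CP29B, a chloroplast RNA-binding protein (r = 0.876), AMT1-2, an ammonium transporter (0.873), CHSE, a chalcone synthase (0.872), and MLP423 (0.862). They were followed by APG (0.858), coq-5 (0.846), At5g56590 (0.846), the CYP98A3 locus G25739 (0.844) and FL, a flavonol synthase (0.837). Of these, AMT1-2 was the one whose likeness held most closely within the 9 stressed libraries (r = 0.84), with 102.3, 114.69 and 115.78 FPKM in DR against 10.68, 2.2 and 10.67 FPKM in DH. Among the cuticle genes that DR2 does not list, MYB106, the FDH loci and DCR had r of 0.91, 0.90, 0.89 and 0.78 over 11 libraries. Other cuticle genes were less like CYP86A22: G14287 had r = 0.44, LTP1 -0.13 and At1g31550 -0.33 over 12 libraries. G43687 had r = 0.83 over 12 libraries and 0.43 within the 9 stressed libraries, so its likeness rested largely on the CK libraries. Among genes with a value in every library, the highest r belonged to G4926 (0.956) and G4943 (0.947), which have no symbol. These also followed CYP86A22 within the 9 stressed libraries (0.886 and 0.878).

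At the other end stood MBF1C, a coactivator of the heat response, with r = -0.718, and the ethylene response factors RAP2-3 (-0.715) and ERF071 (-0.705). MBF1C had 4805.21, 613.96 and 2341.5 FPKM in DH1, DH2 and DH3, against 124.26, 220.39 and 118.99 FPKM in CK1, CK2 and CK3. Within the stressed libraries the opposition was weaker, with r of -0.428, -0.201 and -0.237 for MBF1C, RAP2-3 and ERF071.

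**Figure D4:**
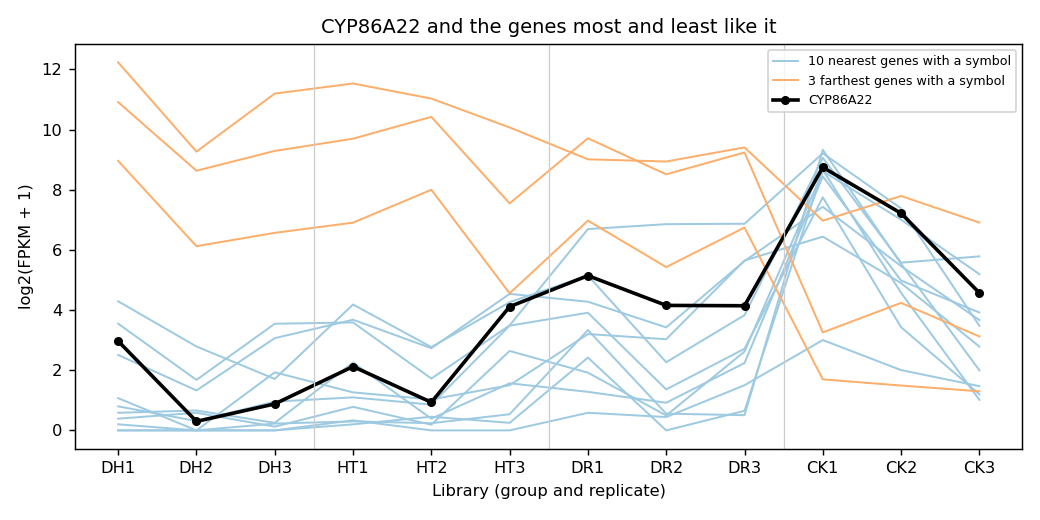
Log2(FPKM + 1) in the 12 libraries for CYP86A22 (black), the 10 genes with a symbol and the highest Pearson r with it (blue) and the 3 with the lowest r (orange), among genes with a value in every library. Lines join the libraries of a gene only to guide the eye. The blue lines peak in CK1 with CYP86A22, and each orange line has its lowest point in CK.

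Because each pool held leaf and storage root RNA, markers of both organs were summed in every library. The 7 leaf markers summed, of 9 on the list, were genes of chlorophyll synthesis and photosynthesis, and CSP41A. Their summed level was 89.4, 36.2 and 561 FPKM in DH1, DH2 and DH3 and 442, 129 and 369 FPKM in HT1, HT2 and HT3. It was 1151, 1431 and 3090 FPKM in DR1, DR2 and DR3, against 7123, 2253 and 1144 FPKM in CK1, CK2 and CK3. Most of this sum came in every library from the CRD1 loci G16398 and G16412 and from G1470 (At1g32060). In CK1 these had 3504.18, 1201.68 and 2352.54 FPKM, so the sum is in the main a measure of those loci. The markers of both organs were named in the study's annotation and picked by the study from these same libraries, so they are not independent of the stresses. The leaf sum was thus low in the heat-treated groups and highest in CK1, like CYP86A22, and the list had no marker at 0 in CK or DR and up to 3 of 7 at 0 in DH and HT. The summed level of 5 storage root markers of starch metabolism was 0.56, 7.03 and 28.7 FPKM in DH, 3.01, 20.3 and 1.93 FPKM in HT, 45.3, 6.59 and 12.4 FPKM in DR, and 33.8, 103 and 1756 FPKM in CK. CK3, the lowest CK library for CYP86A22, had by far the highest root sum and the lowest leaf sum of the CK libraries.

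Over the 12 libraries CYP86A22 had r = 0.82 with the leaf sum and 0.34 with the root sum on log2 scales, and without CK1 and DH2 these were 0.65 and 0.34. Per 100 FPKM of leaf markers, CYP86A22 amounted to 7.63, 0.64 and 0.15 FPKM in DH1, DH2 and DH3 and 0.76, 0.70 and 4.42 FPKM in HT1, HT2 and HT3. The same ratio was 2.98, 1.17 and 0.54 FPKM in DR1, DR2 and DR3, against 6.0, 6.55 and 1.99 FPKM in CK1, CK2 and CK3. On this scale the groups overlapped, with DH1 above all CK libraries and HT3 and DR1 above CK3. Of the 9 leaf markers, the CRD1 loci G16398 and G16412 were lowered under DH (0.968% of all genes tested; log2 changes -4.45 and -4.76, limma adjusted p 0.039 and 0.018). These calls were lost without any 1 of 6 libraries for G16398 (adjusted p up to 0.18) and of 3 libraries for G16412 (up to 0.11). A smaller leaf share and a lower level of these genes within leaves cannot be told apart in these pools, and what part the organ mixture has in the level of CYP86A22 was not tested.

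**Figure D5:**
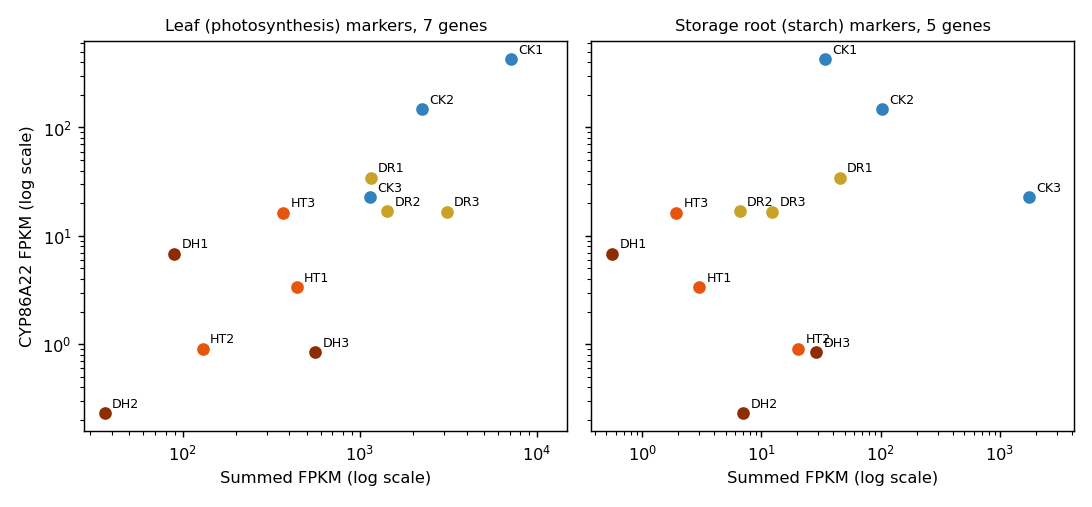
CYP86A22 level against the summed level of 7 leaf markers (left) and of 5 storage root markers (right) in each of the 12 libraries, FPKM on log scales, with libraries labelled by group and replicate. CK1 has the highest leaf sum (7123 FPKM) and the highest CYP86A22 level, and CK3 stands apart by its root sum (1756 FPKM).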

How the data were processed

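Leaf and storage root RNA of 12 pooled samples was sequenced. According to the labels, the authors trimmed the reads with cutadapt 1.9, aligned them with HISAT2 2.0.4 and computed FPKM with StringTie 1.3.4d, and these FPKM values were deposited, 1 table per library. FPKM is already corrected for transcript length and library size. DESeq2 and edgeR, named by the authors, need counts and were not run here. The genome and its coordinates were not used here. Gene symbols came from the study's annotation, for 229 identifiers.

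Sample titles gave the groups. A linear model of log2(FPKM + 1) was fitted to all 12 libraries together, without covariates, in limma 3.58.1 under R 4.3.3 (two-sided tests, eBayes with a trend), over 12295 genes with at least 1 FPKM in at least 3 libraries, of which 1087 have no value in DR2 and were fitted on 11 libraries. P-values were adjusted by Benjamini-Hochberg, and calls required an adjusted p under 0.05 and a log2 change beyond 1. The fit was tested on simulated data. Python 3.11.15 served for correlations (numpy 2.4.6, scipy 1.17.1, pandas 2.3.3) and figures (matplotlib 3.10.9).

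Counts behind an FPKM cannot be given, since gene lengths are not in the tables. A relative depth read from the steps of low values was tried under 2 rules, the second set after mapped reads stated by the study had been seen; for CK3 they gave 0.26 and 0.52 of the depth of CK1, and no depth was used. The gene, the lists and the comparisons were chosen with earlier results of these data known. Genes named are CYP86A22, members of the cuticle, lipid and P450 lists, the 10 genes with a symbol and the highest r with CYP86A22, the 3 with the lowest r, and 2 identifiers without a symbol. The genes ranked by r were those with a value in every library. Alternatives were other pseudocounts (0.1, 0.01), filters (none, 6 libraries, mean FPKM of 5) and scalings, a fit of only the groups compared, a replicate block, array weights and each library left out. The labels name no shared source for libraries of the same replicate number; their deviations correlated in 3 of 3 pairs for CK with DR only, and pairing was taken from the data for that comparison. The proteome was not analysed here.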

Additional observations from a re-analysis of the deposited data

How the results depend on the processing

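CYP86A22 kept its direction in all 7 comparisons under every alternative run. With each library left out in turn, the log2 difference ran between -6.60 and -4.51 for DH against CK, -5.59 and -3.50 for HT against CK, -3.50 and -1.41 for DR against CK, -1.80 and -0.15 for DH against HT, -3.89 and -2.56 for DH against DR, -2.95 and -1.36 for HT against DR, and 0.41 and 2.49 for heat by drought. Array weights gave -2.92 for DR against CK (limma adjusted p = 0.0136; 0.26 to 1.0 over the libraries left out) and -3.36 for DH against DR (0.0047; 0.49 to 1.0), which then passed; the cause was not tested. Under array weights the cuticle list, CYP86A22 included, had 8 genes lowered under DH, 5 under HT and 2 under DR (7, 4 and 1 without CYP86A22), where 10.3%, 1.89% and 2.03% of all genes were lowered. Such a share was not computed for DH against DR. The largest array weights were 8.21 for DH3 and 4.63 for CK2. CYP86A22, selected on these values, is left out of the counts that follow. Under DH the count was 1 with a pseudocount of 0.1 or 0.01, a mean FPKM of 5, the same sum or upper-quartile scaling. It was also 1 with 3 libraries left out together (CK3, HT2 and DH2, chosen after seeing the data). With the replicate block it was 2, and with no filter 0. Under HT the count was 0 in the main fit, with only the groups compared, with either pseudocount, without a filter and with a filter of 6 libraries. It was 1 with those 3 libraries left out. Leaving out single libraries gave counts of 0 to 5 under DH, 0 to 2 under HT and 0 under DR. Apart from the array weights, the share of all genes lowered under DH or HT was not computed for these alternatives. Nothing is read from their counts. Spearman rho shared 5 of the 10 nearest genes with Pearson r, and leaving out single libraries kept 6 to 9. Calls of ACX2, OPR3, CYP75B2, CRD1 and BMY1 were also recomputed, a choice made after seeing the data; none reversed. Under the 14 alternatives other than single libraries left out, the call was lost in 10 for BMY1, 5 for OPR3 (G20440), 5 for CRD1 G16398, 3 for CRD1 G16412, 1 for ACX2 (no filter, limma adjusted p = 0.13) and 0 for CYP75B2. BMY1 (G48653), a root marker with a log2 change of -4.98 under DH (limma adjusted p = 0.044), also lost its call without any 1 of 9 libraries. Deviations of libraries with the same replicate number correlated above 0.1 in 10 of 18 pairs (r from -0.12 to 0.60), in all 3 pairs only for CK with DR. The replicate block changed no call of CYP86A22 (DR against CK, limma adjusted p = 0.40; DH against DR, 0.50). With 3 libraries per group and no counts, the precision of single FPKM values, above all those under 1, cannot be stated.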
